A study of Mus musculus with 11 samples.

Results

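The comparison described here is liver of mice fed a high-fat diet against liver of mice fed chow. It rests on 7 of the 11 arrays of the study: 4 from control mice and 3 from high-fat mice, 1 mouse per array. Both groups are C57/BL/6J mice, an inbred strain, with no other genotype or agent in the labels. Control mice ate Purina Rodent Chow with 6.5% fat, 49% carbohydrate, 23% protein and 3.5 kcal/g. High-fat mice ate diet TD88137 with 42.16% fat and 4.53 kcal/g. In it, protein made up 15.02% and carbohydrate 42.81%. Whether each diet's shares are by weight or by energy was not established, so the shares cannot be compared between the diets. The stated energy per gram also differed. Each diet lasted 10 weeks. The study held 9 control and 5 high-fat mice, and the labels used here give neither sex nor age. The fourth high-fat array was left out by the rule that chose the samples, and 3 arrays of mice that ate the high-fat diet and then fasted for 48 h enter the model only to estimate the spread between mice.

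The liver clears fat, makes most plasma proteins and oxidises drugs, steroids and dietary chemicals. A diet rich in fat loads hepatocytes with fatty acids, which can be burned in mitochondria and peroxisomes, stored as triglyceride in lipid droplets or sent out in lipoproteins. Cytochrome P450 enzymes carry out the first oxidation of many foreign compounds, and nuclear receptors set their transcription.

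Each value is the log2 ratio of liver RNA, labelled with Cy5, over a universal mouse reference RNA, labelled with Cy3, after the median of its array was subtracted. A ratio above 0 means that the gene stood higher in liver than in the reference, relative to the typical gene of that array. A change is the mean ratio in high-fat livers minus that in control livers. With centred arrays the reference, which is the same on all arrays, drops out of the change. Where arrays were also scaled to one spread, each was divided by its own factor, so there the reference does not fully drop out. A scaled change thus also depends on how far the gene stands from the median of its array. Calls rest on limma's moderated two-sided test with Benjamini-Hochberg adjustment, at a threshold of 0.05, and "rose" and "fell" are used of called genes only. In whole liver, fewer cells of a type and less RNA per cell cannot be told apart.

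Between 3864 and 5567 of the 17280 rows held a value on an array, and 3907 genes had values on at least 2 control and 2 high-fat arrays. Pearson correlations over shared rows were 0.80 to 0.89 between control arrays, 0.83 to 0.86 between high-fat arrays and 0.69 to 0.85 between the groups. High-fat array 4 had correlations of -0.03 to 0.01 with every other array. The tissue label was checked with hepatocyte markers: the albumin gene Alb lay at the 98.4th percentile or above among genes filled on all 7 arrays, and the transthyretin gene Ttr at the 97.2nd or above. The spread of the arrays differed between the groups, since the median absolute value after centring was 0.43 to 0.52 on control arrays and 0.26, 0.37 and 0.39 on high-fat arrays 1, 2 and 3.

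The genes with the clearest drop among the drug-metabolising enzymes were 3 cytochrome P450 genes, Cyp3a11, Cyp2c29 and Cyp2c37. Their promoters are shown because these genes fell together. Each sequence runs 5′ to 3′ from 250 bases before to 50 bases after the start of the gene, from RefSeq on GRCm38.p6. Cyp3a11 is at chr5:145879805-145880104 on the minus strand, Cyp2c29 at chr19:39286835-39287134 on the plus strand and Cyp2c37 at chr19:39992174-39992473 on the plus strand. Capitals mark matches to any of 6 short motifs, searched on both strands: the TATA box core TATAAA, the nuclear receptor half-site AGGTCA, the HNF4 core CAAAGT, the HNF1 half-site GTTAAT, the CCAAT box CCAAT and the E-box CACGTG.
Cyp3a11: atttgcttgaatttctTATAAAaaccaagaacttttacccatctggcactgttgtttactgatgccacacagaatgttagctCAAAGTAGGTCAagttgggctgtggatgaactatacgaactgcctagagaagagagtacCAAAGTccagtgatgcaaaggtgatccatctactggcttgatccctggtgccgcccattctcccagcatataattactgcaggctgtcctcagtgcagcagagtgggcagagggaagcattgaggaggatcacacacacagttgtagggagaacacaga
Cyp2c29: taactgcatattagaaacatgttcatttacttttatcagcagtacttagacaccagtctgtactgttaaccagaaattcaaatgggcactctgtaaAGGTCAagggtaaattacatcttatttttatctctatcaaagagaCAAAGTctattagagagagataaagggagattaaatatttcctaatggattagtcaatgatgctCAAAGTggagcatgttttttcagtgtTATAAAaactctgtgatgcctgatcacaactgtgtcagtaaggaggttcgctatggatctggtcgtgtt
Cyp2c37: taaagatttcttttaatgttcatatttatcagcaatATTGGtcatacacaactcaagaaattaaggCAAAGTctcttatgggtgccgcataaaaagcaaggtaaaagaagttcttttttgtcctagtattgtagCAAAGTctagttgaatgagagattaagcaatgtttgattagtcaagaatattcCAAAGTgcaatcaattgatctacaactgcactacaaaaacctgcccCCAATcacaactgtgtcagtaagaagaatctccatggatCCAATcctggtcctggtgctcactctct
The HNF4 core stood in all 3 windows, 2 times in Cyp3a11, 2 times in Cyp2c29 and 3 times in Cyp2c37, against 14.4% of 32817 promoter windows of this length with at least 1 match. In Cyp3a11 and Cyp2c29 there was 1 AGGTCA each, which 16.3% of windows hold, and in Cyp3a11 it directly follows a CAAAGT without overlap. TATAAA stood 19 bases before the start in Cyp2c29 and 234 bases before it in Cyp3a11, and 13.6% of windows hold it. CCAAT stood 3 times in Cyp2c37, and 37.4% of windows hold it. GTTAAT and CACGTG, which 7.1% and 7.15% of windows hold, matched none of the 3. In a global alignment the Cyp2c29 and Cyp2c37 windows were identical in 60.3% of aligned columns, and each of them shared 50.6% and 51.5% of columns with Cyp3a11. A match is a description of letters and no evidence of binding.

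Over all genes, high-fat feeding went with 86 rises and 55 falls, 141 of 3907 genes or 3.61% (2.20% rose and 1.41% fell). Of the 3907 genes, 935 had an unadjusted p under 0.05, and 726 with scaled arrays. Counts in the gene lists below are to be read against these shares. In a short list 0 calls is near the 3.61% over all genes. The groups did not overlap for 1011 genes, 25.9%. Scaling the arrays to one spread gave 114 calls, 2.92%, split into 90 rises (2.30%) and 24 falls (0.614%). Of the 141 genes, 69 were called both ways, 49 rises and 20 falls, and 139 kept their direction. On the 7 arrays alone, without the fasted livers, 25 genes were called, 0.640%, among them 9 of the rises and 16 of the falls. Single mice moved the total: it was 19 without high-fat array 2, 17 without high-fat array 3, 88 without high-fat array 1, 86 and 54 without control arrays 1 and 3, and 87 and 85 without fasted arrays 1 and 2. Of the 43 called genes named in the text, 28 of 39 that could be tested lost the call without high-fat array 2, 28 of 37 without high-fat array 3, 20 of 42 without control array 3 and 13 of 41 without high-fat array 1, and 0 changed direction in any of these fits. With the 7 arrays alone 27 of the 43 lost the call, with those arrays scaled 33 of 43, and with all arrays scaled 11 of 43.

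Falls lay among genes with high ratios, while rises were spread over the whole range. Since genes are called on the high-fat minus the control mean, the choice of the called genes partly fixes how their control ratios differ, and these values are a description. Genes that rose had a median control ratio of -0.62, and 77 of the 86 lay below 0. Genes that fell had a median control ratio of 1.58, from 0.52 to 3.25, with 0 of 55 below 0, while 53.3% of all genes tested lay below 0. With the genes in 5 bins of 780 to 782 by mean ratio, from lowest to highest, the median change was 0.26, 0.17, 0.08, -0.02 and -0.27 with centred arrays, and 0.01, 0.08, 0.08, 0.08 and 0.04 with arrays scaled to one spread. These bins held 29, 22, 9, 17 and 9 rises and 0, 0, 0, 4 and 51 falls. With scaled arrays the highest bin held 35 rises and 18 falls.

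**Figure D1:**
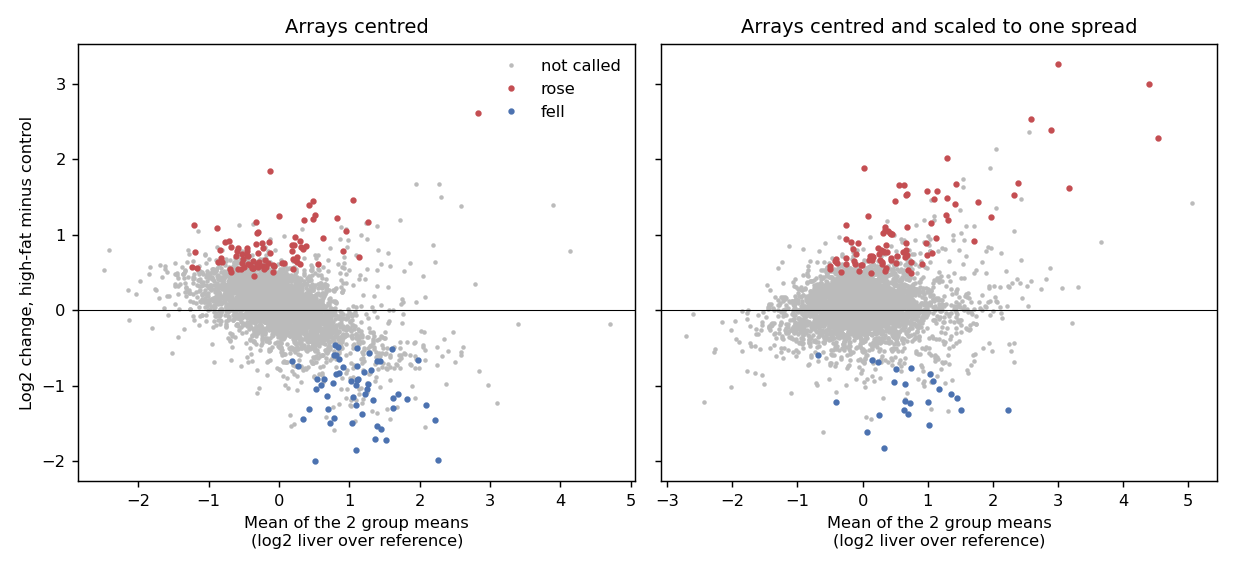
Log2 change between high-fat and control livers (vertical) against the mean of both group means (horizontal, log2 liver over reference), 1 point per gene, for 3907 genes. With centred arrays (left) the cloud slopes down and the 55 falls lie at high ratios; with arrays scaled to one spread (right) the slope is gone and 24 falls and 90 rises are called.

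A measure that does not depend on spread or centring is the place of a gene within its array, taken as the percentile of its ratio among the 2394 genes filled on all 7 arrays. It was added after the data had been seen. The places of the groups did not overlap for 383 of these genes, 16.0%. Of the called genes in this set, 52 of 56 rises and 29 of 45 falls had places that did not overlap, in the called direction. These were the genes picked for their change, so the shares describe them and do not test them.

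Drug and steroid metabolism: Cyp3a11, the main mouse liver enzyme of the family that oxidises drugs, steroids and bile acids, fell 3.94-fold. Its ratios were 2.99, 4.47, 3.25 and 2.29 in control livers and 0.92, 1.37 and 1.52 in high-fat livers. All 3 high-fat livers lay below all 4 control livers, and control array 2 was the highest. The mean went from 3.25 ± 0.91 (SD, n = 4) to 1.27 ± 0.31 (SD, n = 3), a log2 change of -1.98 ± 0.41 (SE) with a limma adjusted p of 0.0282, and of -1.32 with scaled arrays (adjusted p = 0.0391). Its place within the array was at the 99.1st percentile or above in control livers and between the 93.8th and 97.9th in high-fat livers. Leaving out control array 3, or high-fat array 1, 2 or 3, ended the call, with adjusted p of 0.0578 to 0.0966, as did leaving out the fasted arrays (0.0587).

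Cyp2c37 and Cyp2c29, which oxidise arachidonic acid and drugs, fell with it. Cyp2c37 had ratios of 1.22, 2.86, 2.29 and 1.69 in control livers and 0.48, 0.02 and 0 in high-fat livers. Its place fell from the 93.8th percentile or above to the 39.6th, 40.4th and 81.9th, so 2 of the high-fat livers held it below the middle of the array. Its change was -1.85 ± 0.31 (SE, adjusted p = 0.0157), and -1.51 with scaled arrays. Cyp2c29 had ratios of 2.66, 3.01, 1.51 and 2.37 in control livers and 0.62, 0.51 and 0.87 in high-fat livers, with no overlap. Its change was -1.72 ± 0.29 (SE, adjusted p = 0.0182), and -1.32 with scaled arrays. Both lost the call without high-fat array 2 or 3, with adjusted p of 0.0508 to 0.0684.

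The other P450 genes did not pass. In all 7 of 9 tested P450 genes were lower and 3 fell, 33.3% against 3.61% called over all genes, with a median change of -0.55 against 0.07 over all genes tested. With scaled arrays the same 3 fell, 5 of 9 were lower and the median was -0.05. Cyp2e1, which oxidises ethanol, had -0.64 (adjusted p = 0.0799), Cyp2d22 -0.55 and Cyp2d26 -0.50, while Cyp2d40 had 0.04 and Cyp2b13 0.18. The mean of the P450 genes filled on all 7 arrays was 1.37 to 2.08 on control arrays, with control array 2 the highest, and 0.63 to 0.73 on high-fat arrays. Without control array 2 the median change was -0.39. P450 genes of 1 subfamily are alike in sequence, and how far a spot also binds RNA of its relatives was not tested.

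Aldh1a1, which oxidises retinal to retinoic acid, had ratios of 1.26, 3.06, 2.33 and 1.97 in control livers and 0.66, 0.42 and 0.78 in high-fat livers. The groups did not overlap, and the change was -1.53 ± 0.32 (SE, adjusted p = 0.0282). It was -1.11 with scaled arrays (adjusted p = 0.0423), and the call ended when control array 3 or high-fat array 1, 2 or 3 was left out (adjusted p of 0.0574 to 0.111). Ces1c, a carboxylesterase that cleaves ester drugs, had 0.74, 2.38 and 1.38 in 3 control livers and 0.16, 0.01 and 0.05 in high-fat livers, a change of -1.43 ± 0.35 (SE, adjusted p = 0.0479). Its call was kept under 6 of 21 alternatives and was lost without any 1 array other than control array 1, with a change of -0.99 without control array 2. The 2 other carboxylesterases tested, Ces1e and Ces1g, had -0.39 and -0.59 and did not pass.

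The aldo-keto reductases that act on steroids moved both ways. Akr1c6, which interconverts sex steroids in liver, fell from 2.01, 2.28, 1.11 and 1.69 to 0.67, 0.56 and 0.95, a change of -1.05 ± 0.24 (SE, adjusted p = 0.0341). Akr1c18, which inactivates progesterone, rose from -1.24, -1.18, -1.10 and -1.43 to -0.32, -0.12 and -0.88, a change of 0.80 ± 0.18 (SE, adjusted p = 0.0325). The groups did not overlap in either gene, but neither passed with scaled arrays (adjusted p of 0.143 for Akr1c6 and 0.132 for Akr1c18), and both lost the call without control array 1, fasted array 1 or 2 or high-fat array 1 or 2 (adjusted p of 0.0529 to 0.137). Akr1c6 lost it also without high-fat array 3 and Akr1c18 without control array 3 or 4. Akr1c14 and Akr1c20 had -0.92 and -1.18 without passing. Of the 14 dehydrogenases, reductases and oxygenases tested, 9 were lower, 2 fell and 1 rose, 21.4% called against 3.61% over all genes. The list had a median of -0.50, and of -0.28 with scaled arrays. Without control array 2 the median was -0.10.

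Glutathione transferases, which attach glutathione to reactive compounds, were lower for 9 of 10 members, with a median of -0.31 (-0.14 without control array 2), and 0 were called by limma, while 5 had an unadjusted p under 0.05. Over all genes tested 1603 of 3907 were lower, and 935 had an unadjusted p under 0.05. Gsta3 had -1.16 (adjusted p = 0.0986), Gstt1 -0.72 and Gstm1 -0.71, and Gstz1 was the member that was higher, at 0.35. With scaled arrays 5 were lower and 5 higher, the median was -0.01, and 0 had an unadjusted p under 0.05. Among the 5 glucuronyl- and sulfotransferases tested 0 were called and 3 had an unadjusted p under 0.05. Sult4a1 had -1.53 (adjusted p = 0.0539) and fell with scaled arrays (-1.62, adjusted p = 0.0423), and Ugt1a9 had 0.47.

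**Figure D2:**
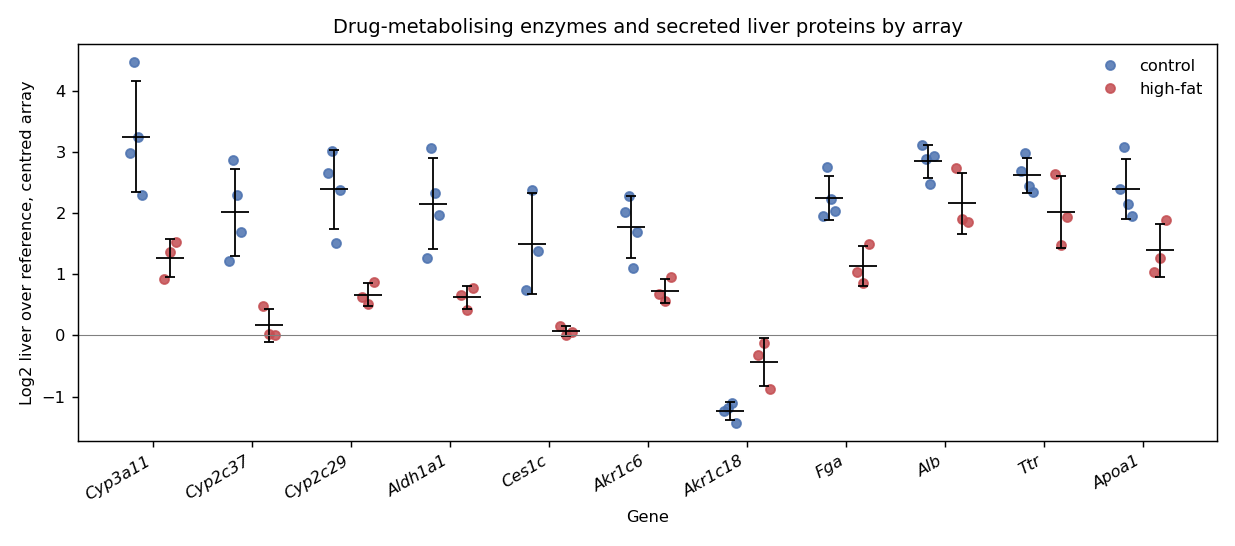
Log2 ratio of liver over reference on each centred array (vertical) for 11 enzyme and plasma protein genes (horizontal), with the mean and SD of 4 control and 3 high-fat arrays (3 control arrays for Ces1c). The P450 genes, Aldh1a1, Ces1c and Akr1c6 lie lower in all high-fat livers and Akr1c18 higher, while Alb and Ttr overlap.

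Plasma proteins and lipoproteins: Fga, the alpha chain of the clotting protein fibrinogen, fell from 1.95, 2.75, 2.23 and 2.04 to 1.04, 0.86 and 1.49, a change of -1.11 ± 0.22 (SE, adjusted p = 0.0282). With scaled arrays it had -0.58 (adjusted p = 0.142), and it lost the call without control array 3 or high-fat array 1, 2 or 3 (0.0508 to 0.114). Its places did not overlap, at the 98.0th percentile or above in control livers and the 91.3rd to 97.8th in high-fat livers. Fgb, the beta chain, had -0.47 (adjusted p = 0.525). Serpina5, an inhibitor of activated protein C, rose from -0.34, -0.02, 0.20 and -0.08 to 0.64, 0.68 and 0.94, a change of 0.81 ± 0.15 (SE, adjusted p = 0.0197), and of 1.01 with scaled arrays (adjusted p = 0.00985). It lost the call without high-fat array 2 or 3 (0.0652 and 0.0612). These were the 2 members called among 21 acute phase, complement and coagulation genes, 9.52% against 3.61% over all genes. Of the 21, 15 were lower, with a median of -0.36. That median was -0.11 with scaled arrays and -0.05 without control array 2.

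The abundant plasma carrier genes Alb, Ttr and Apoe had lower ratios in high-fat livers with centred arrays and higher ones with scaled arrays, and did not pass either way. Alb had 3.11, 2.89, 2.47 and 2.93 in control livers and 2.74, 1.90 and 1.85 in high-fat livers, which overlap. Its change was -0.69 ± 0.27 (SE, adjusted p = 0.156), and 0.28 with scaled arrays. Ttr, which carries thyroid hormone, had a change of -0.61 (adjusted p = 0.155) and of 0.32 with scaled arrays. The apolipoprotein Apoe had -0.49 (adjusted p = 0.295) and 0.36 with scaled arrays. Apoa1, the main protein of high-density lipoprotein, had 2.40, 3.08, 2.15 and 1.95 in control livers and 1.03, 1.26 and 1.88 in high-fat livers, without overlap, and a change of -1.005 ± 0.26 (SE, adjusted p = 0.0539). It kept its direction with scaled arrays, at -0.43 (adjusted p = 0.256). Of 11 genes tested from the apolipoprotein list 7 were lower and 0 were called with centred arrays, with 4 at an unadjusted p under 0.05. Whether each gene of the list encodes a part of plasma lipoproteins was not examined. The list's median was -0.31 (-0.21 without control array 2). Apoa1, Apoa2, Apoc3, Apoc4 and Apoe were all lower, and the 4 higher were Apoo (0.87), Apool (0.12), Apol9b (0.19) and Saa2 (0.44). With scaled arrays 6 were lower and 5 higher, the median was -0.01, and Apoo rose (1.69, adjusted p = 0.0212).

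Hepatocyte markers as a list were lower for 20 of 21 members, with 3 falls (Cyp2c29, Cyp3a11 and Fga; 14.3% called against 3.61% over all genes) and 0 rises, and a median of -0.60 that became 0.03 with scaled arrays, where 10 were lower and 11 higher and 2 fell (Cyp2c29 and Cyp3a11). The mean of the members filled on all 7 arrays was 1.52 to 1.61 on control arrays 1, 3 and 4, 2.59 on control array 2, and 0.99 to 1.31 on high-fat arrays. Without control array 2 the list's median was -0.27. Otc, an enzyme of the urea cycle, had -1.04 (adjusted p = 0.0964) and the major urinary protein gene Mup3 -0.73 (adjusted p = 0.088). Amino acid breakdown and urea cycle genes had a median of -0.32 over 15 members, with 11 lower, 0 called and 4 at an unadjusted p under 0.05. Without control array 2 that median was 0.00 to 2 decimals.

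Fat and glucose metabolism: 0 of the 13 tested genes of fatty acid oxidation and PPAR alpha targets were called with centred arrays by limma, and 4 had an unadjusted p under 0.05. Over all genes 3.61% were called, and 935 of 3907 had an unadjusted p under 0.05. In lists as short as this and those that follow, 0 calls is near that share and does not show that the genes kept their level. Their median was -0.06, with 8 lower and 5 higher, and 0.04 without control array 2. Phyh, which starts the breakdown of phytanic acid in peroxisomes, had -1.03 (adjusted p = 0.0756) and fell with scaled arrays (-1.22, adjusted p = 0.0397). Ech1 had -1.03 and Ehhadh -0.88, both enzymes of fatty acid oxidation, while Decr1, a mitochondrial reductase for unsaturated fatty acids, had 0.49 (adjusted p = 0.0755). The spread within the list of fatty acid oxidation genes was thus wider than its median.

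The enzymes that make fatty acids and triglyceride gave 0 calls among 9 tested genes and 0 at an unadjusted p under 0.05, with 8 lower and a median of -0.23 that was -0.01 without control array 2. Over all genes 3.61% were called and 935 of 3907 had an unadjusted p under 0.05. Fasn, the fatty acid synthase, had 0.37, 0.65, 1.20 and 0.49 in control livers and 0.20 and 0.36 in 2 high-fat livers, a change of -0.40 (adjusted p = 0.313). Scd1, which desaturates stearate, had 2.25, 2.62, 1.54 and 1.55 in control livers and 2.57, 1.92 and 2.00 in high-fat livers, a change of 0.17 ± 0.27 (SE, adjusted p = 0.735). Its place within the array was at the 95.9th to 98.6th percentile in control livers and at the 98.4th to 99.6th in high-fat livers, and its change was 1.06 with scaled arrays (adjusted p = 0.229). Dgat2, which completes triglyceride, had 2.90, 1.22 and 1.23 in 3 control livers and 0.37 and 2.20 in 2 high-fat livers, so the groups overlap. Pnpla3 had -0.38 and the transcription factor gene Mlxipl -0.07.

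Lipid droplet and lipase genes had 0 calls among 7, against 3.61% called over all genes, with 2 at an unadjusted p under 0.05. Cidec, which promotes the growth of lipid droplets, had 0.59, 0.50 and 0.46 in 3 control livers and 0.22, 0.05 and 0.49 in high-fat livers, a change of -0.26 (adjusted p = 0.31). Pnpla2, the first lipase of stored triglyceride, had -0.46 (adjusted p = 0.0755). The receptor Vldlr had -0.32, -0.66, -0.65 and -0.45 in control livers and 0.12, -0.26 and -0.27 in high-fat livers, higher in all 3 but with an adjusted p of 0.175. Cholesterol synthesis and uptake gave 0 calls among 6 and 0 at an unadjusted p under 0.05, and bile acid genes 0 among 5 and 2. Slc27a5, which activates bile acids, had -1.17 (adjusted p = 0.0901).

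Glycolysis, gluconeogenesis and glycogen gave 0 calls among 11 genes, with 2 at an unadjusted p under 0.05 and a median of 0.03 (0.08 without control array 2). Pklr, the liver pyruvate kinase, had -0.27, 0.32, -0.18 and 0.39 in control livers and 0.12, -0.18 and 0.34 in high-fat livers, which interleave. Its change was 0.03 ± 0.18 (SE, adjusted p = 0.944). Gys1, a glycogen synthase, had -0.77 (adjusted p = 0.0834) and Fbp1, of gluconeogenesis, -0.71. With centred arrays the tricarboxylic acid cycle had 0 calls among 13 and oxidative phosphorylation 0 among 20, with 1 and 7 at an unadjusted p under 0.05 and medians of -0.04 and -0.03. Without control array 2 these medians were 0.05 and 0.08. The 0 counts of these lists are near the 3.61% called over all genes. With scaled arrays 1 of the oxidative phosphorylation genes rose, Ndufs7, a subunit of complex I (0.77, adjusted p = 0.0468). Of 49 fixed marker genes, among them plasma carriers and genes of fat, glucose and stress metabolism, 38 have a row and 11 had enough values to be tested.

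**Figure D3:**
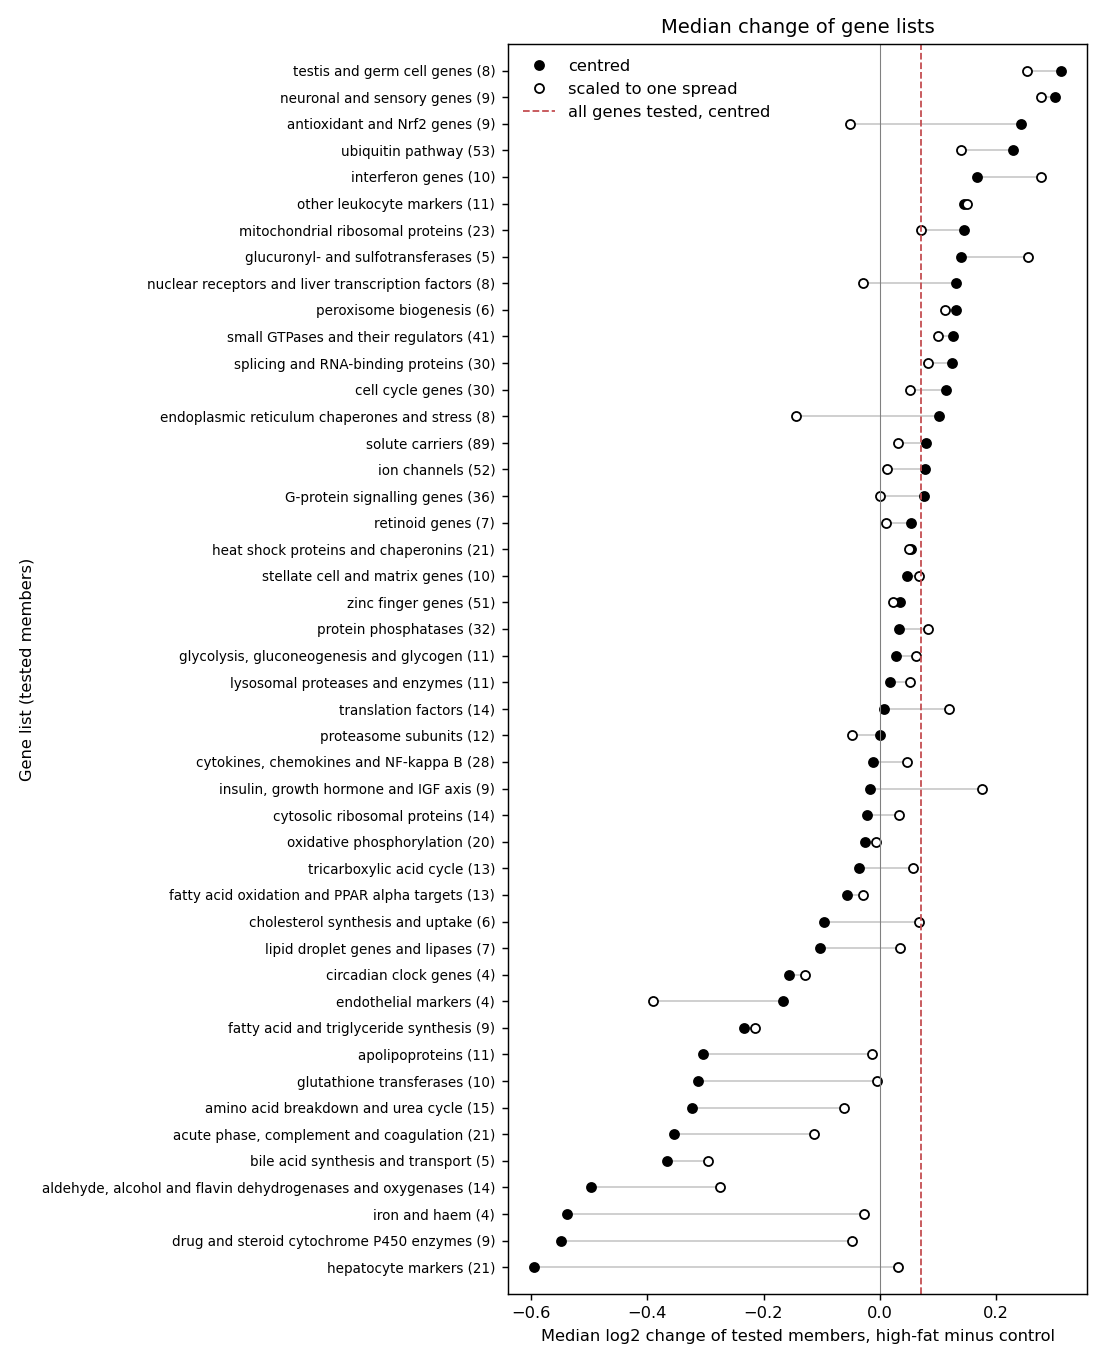
Median log2 change between high-fat and control livers (horizontal) of the 46 gene lists with at least 4 tested members (vertical, number of tested members in brackets), with centred arrays (filled) and arrays scaled to one spread (open); the dashed line is the median of all genes, 0.07. Hepatocyte markers and P450 genes lie lowest with centred arrays, at -0.60 and -0.55, and at 0.03 and -0.05 with scaled arrays, while testis genes and ubiquitin pathway genes stay above 0.

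Genes that rose under every alternative that tested them were Pik3cg, Crabp1, Sh3kbp1, Cts3 and Rnf148. Pik3cg, which encodes the gamma catalytic subunit of phosphoinositide kinase, a leukocyte signalling enzyme, had -1.17, -0.98 and -1.01 in 3 control livers and 0.50, 0.65 and 1.22 in high-fat livers. It stood well below the median of the array in the 3 control livers with a value and above that median in all high-fat livers. Its change was 1.84 ± 0.18 (SE, adjusted p = 0.00265), and lay between 1.63 and 2.05 over all alternatives. Crabp1, which binds retinoic acid in the cytosol, had 0.18, 0.19 and 0.59 in 3 control livers and 1.95, 1.61 and 1.77 in high-fat livers, a change of 1.46 ± 0.15 (SE, adjusted p = 0.00265). Aldh1a1, which makes retinoic acid, moved the other way. Of 7 retinoid genes tested these were the 2 called, 28.6% against 3.61% over all genes. Crabp2, the second cytosolic binding protein, had 0.23 (adjusted p = 0.483).

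The rows of these genes are close in the table. Crabp1 is in row 15010, next to a called spot without a gene name, and Pik3cg is in row 15031. The uncharacterised gene 1700013F07Rik, in row 14968, rose too, from -0.55, -1.05 and -0.30 to 0.09, 0.63 and 1.15 (1.26 ± 0.26, SE, adjusted p = 0.0282), but lost the call without control array 3 or high-fat array 2 or 3 (0.0651 to 0.101). The rows tested within 42 of Crabp1, 33 in all, had a median change of 0.36, and the 29 around Pik3cg had 0.30, against 0.07 over all genes. Across all rows, which are not independent, the change of a row had a Pearson r of 0.23 with that of the next row (964 pairs) and of 0.17 with that of the row 20 further on. Whether the place on the array adds to these rises was not tested.

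Sh3kbp1, an adaptor in the endocytosis of growth factor receptors, had 0.05, -0.12, -0.46 and 0.07 in control livers and 1.03, 1.26 and 1.15 in high-fat livers. It went from at most the 49.3rd percentile of its array to at least the 95.2nd, a change of 1.26 ± 0.16 (SE, adjusted p = 0.00494). Rnf148, a RING finger protein known from testis, had -1.07, -1.01, -0.97 and -0.58 in control livers and 0.12, 0.36 and 0.32 in high-fat livers, a change of 1.17 ± 0.14 (SE, adjusted p = 0.00329). The placental cathepsin gene Cts3 had -0.33 and -0.16 in 2 control livers and 0.93, 0.78 and 1.16 in high-fat livers, a change of 1.20 ± 0.17 (SE, adjusted p = 0.0126). Cts3 could not be tested without control array 1 or 2, and over the 19 alternatives that tested it the largest adjusted p was 0.0488. The rows around the spots of Sh3kbp1, Rnf148 and Cts3 had medians of -0.02, 0.30 and 0.28.

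Lrrc18, a leucine-rich repeat protein of the testis, rose from -0.22, -0.60, 0.10 and 0.23 to 1.31, 0.93 and 1.02 (1.21 ± 0.20, SE, adjusted p = 0.0157), and missed the threshold under 1 of 22 alternatives, the 7 arrays alone with scaling (adjusted p = 0.0532). Of 8 testis and germ cell genes tested 7 were higher and Rnf148 and Lrrc18 rose, 25% against 3.61% of all genes called and 2.20% that rose. Over all genes tested 2304 of 3907 were higher. The median of the 8 testis and germ cell genes was 0.31, and 0.25 with scaled arrays. Gabrr1, a GABA receptor subunit of the retina, rose from -0.07, -0.03, 0.26 and 0.68 to 1.01, 1.97 and 1.34 (1.23 ± 0.26, SE, adjusted p = 0.03). Its call was lost without control array 1 or 3 or high-fat array 2 or 3 (0.0578 to 0.125). Of the 9 neuronal and sensory genes tested 7 were higher, with a median of 0.30.

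**Figure D4:**
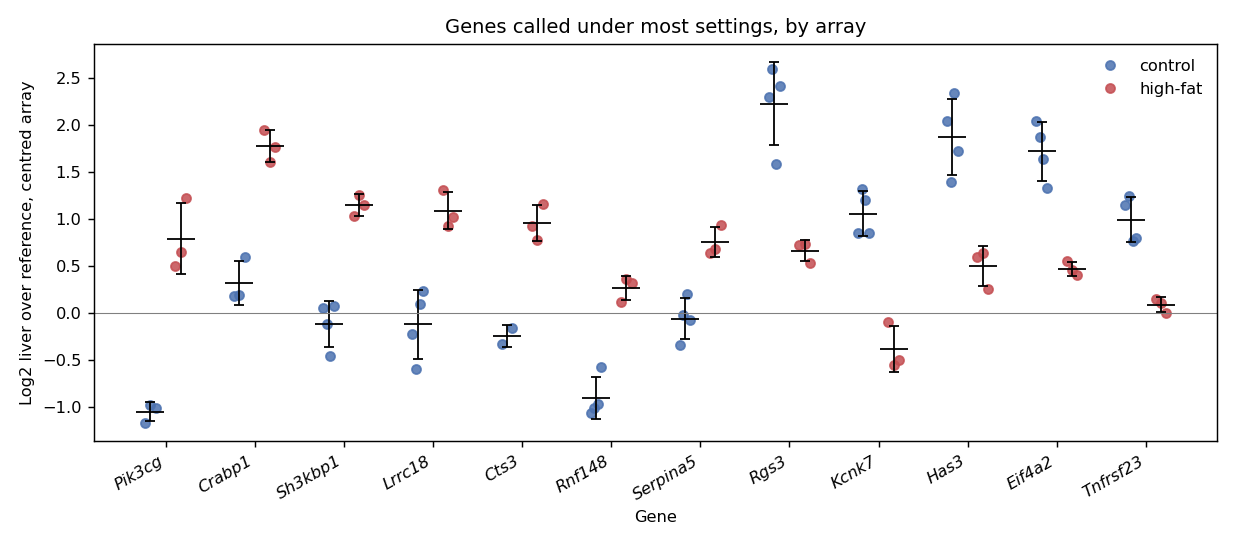
Log2 ratio of liver over reference on each centred array (vertical) for 7 genes that rose and 5 that fell (horizontal), with the mean and SD of 4 control and 3 high-fat arrays (3 control arrays for Pik3cg and Crabp1, 2 for Cts3). The groups do not overlap in any of the 12 genes, for which they were chosen in part.

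Other large rises had fewer values or weaker calls. Mcts1, a factor of translation re-initiation, had 0.30, 2.14, 1.32 and 2.34 in control livers and 4.76 and 3.52 in 2 high-fat livers. Its change was 2.62 ± 0.52 (SE, adjusted p = 0.0282), and it lost the call without control array 3 (0.0578). Without high-fat array 2 or 3 Mcts1 could not be tested. Scara5, a ferritin receptor, had -0.16 and -0.38 in 2 control livers and 0.82, 1.19 and 1.36 in high-fat livers (1.39 ± 0.20, SE, adjusted p = 0.0186). It lost the call without high-fat array 2 or 3 (0.0684 and 0.0508), and could not be tested without control array 1 or 4. Mtarc2, a mitochondrial reductase, rose by 1.05 and lost the call without any 1 array other than control arrays 2 and 4 (0.0525 to 0.0918). Smtnl1, a smoothelin-like muscle protein, rose by 0.97 and Kif21a, a kinesin motor, by 1.17, and Ptpru, a receptor phosphatase with values in 2 high-fat livers, by 1.12. Smtnl1 and Ptpru lost the call without control array 3 (0.0557 and 0.0581), and Smtnl1 and Kif21a without high-fat array 2 or 3 (0.0508 to 0.101). Kif21a had values in 2 control livers, and with scaled arrays neither Kif21a nor Ptpru passed (adjusted p of 0.0705 and 0.0792). Ptpru could not be tested without high-fat array 2 or 3, nor Kif21a without control array 1 or 4.

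Ubiquitin and related modifiers: 3 of 53 tested genes of the ubiquitin pathway rose and 0 fell, 5.66% against 3.61% of all genes. In all 39 were higher, with a median of 0.23 (0.14 with scaled arrays, 0.06 to 0.29 over all alternatives) against 0.07 over all genes. The mean ratio of the members filled on all 7 arrays was -0.56 to -0.43 on control arrays, and the 2 lowest of the 5 bins by mean ratio had median changes of 0.26 and 0.17 over all genes. The 3 that rose were Rnf148, described above, Sumo2 and Rnf5. With scaled arrays 4 rose, among them Rnf220 (0.64, adjusted p = 0.0479). Sumo2, a ubiquitin-like modifier, had -0.19, 0.24, 0.05 and 0.46 in control livers and 1.08 and 1.13 in 2 high-fat livers (0.97 ± 0.19, SE, adjusted p = 0.0282). Rnf5, a ubiquitin ligase of the endoplasmic reticulum, had -0.17, 0.09, -0.18 and 0.22 in control livers and 0.51, 0.72 and 0.58 in high-fat livers (0.61 ± 0.14, SE, adjusted p = 0.0323). Ufm1, a further modifier outside that list, rose from -0.66, -0.76 and -1.04 to -0.05, 0.46 and 0.19 (1.02 ± 0.17, SE, adjusted p = 0.0166). Without single arrays Sumo2 lost the call in 1 case (control array 3, 0.0578) and Ufm1 in 2 (high-fat arrays 2 and 3, 0.0574 and 0.0508). Rnf5 lost it in 7, with control arrays 2 and 4 and fasted array 3 as exceptions (0.0517 to 0.133). Sumo2 has no value on high-fat array 1 and could not be tested without high-fat array 2 or 3, so these counts do not rank the genes. Proteasome subunits had 0 calls among 12, with 1 at an unadjusted p under 0.05 and a median of 0.00 to 2 decimals.

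Translation: Eif4a2, an RNA helicase that opens the cap end of messenger RNA, fell from 2.05, 1.87, 1.63 and 1.32 to 0.55, 0.46 and 0.41, a change of -1.25 ± 0.17 (SE, adjusted p = 0.0058), and of -0.93 with scaled arrays (adjusted p = 0.0253). It is 1 of 10 genes with 17 spots each, which gives a measure of the error between spots. On the 5 spots filled on all 7 arrays the changes ran from -1.25 to -1.55, with a mean of -1.32. The spots differed within an array by an SD of 0.29, while their mean had an SD of 0.30 between control arrays and 0.11 between high-fat arrays. Every 1 of the 5 spots was lower on each high-fat array than on any control array. Eif4a3, a related helicase, had 0.17 (adjusted p = 0.45).

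**Figure D5:**
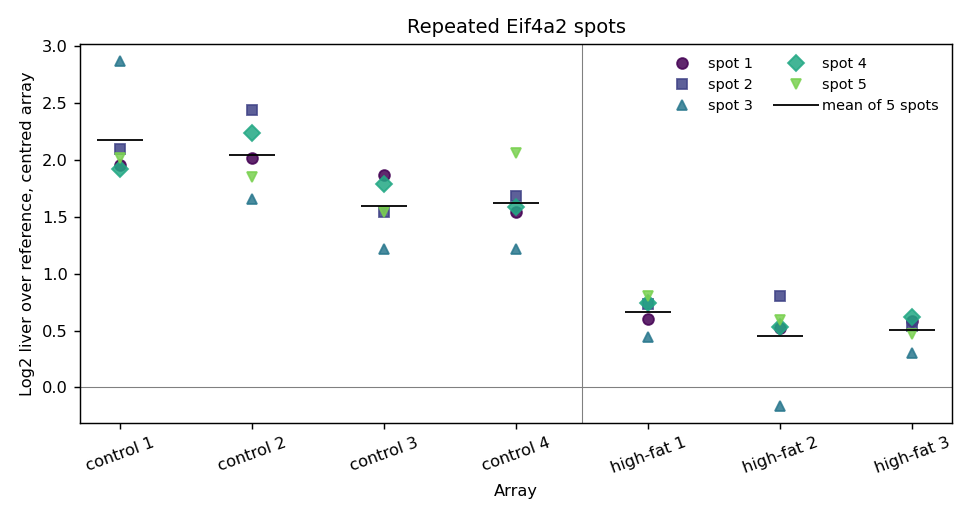
Log2 ratio of liver over reference (vertical) of the 5 Eif4a2 spots filled on all 7 centred arrays, by array (horizontal), with the mean of the 5 spots as a bar. The means are 1.59 to 2.17 on control arrays and 0.46 to 0.66 on high-fat arrays.

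Eif2ak4, the kinase that senses uncharged transfer RNA, rose from -1.63, -1.28, -1.15 and -1.66 to -0.74, 0.07 and -0.36 (1.09 ± 0.20, SE, adjusted p = 0.0197), with 0.81 and an adjusted p of 0.143 with scaled arrays, and lost the call without high-fat array 2 or 3 (0.0805 and 0.0562). With Mcts1 and Eif4a2 it made 3 calls among 14 translation factors, 21.4% against 3.61% over all genes. Their median was 0.01, and -0.07 without control array 2. Rplp1, of the ribosomal stalk, fell by 1.18 on the log2 scale (adjusted p = 0.046) but lost the call without any 1 array other than control array 4 (0.0557 to 0.145). With scaled arrays it had -0.50 (adjusted p = 0.419). The other 13 cytosolic ribosomal protein genes were not called. Mrpl21, of the mitochondrial ribosome, rose by 0.64 (adjusted p = 0.0489) and lost the call without any 1 array other than control array 4 and high-fat array 1 (0.0581 to 0.155). With scaled arrays it had 0.30 (adjusted p = 0.513). Hnrnpk, an RNA-binding protein, rose from 0.82, 0.60, 0.93 and 0.80 to 1.51, 1.37 and 1.59 (0.70 ± 0.16, SE, adjusted p = 0.0352), and lost the call without any 1 array other than control array 4 and fasted arrays 2 and 3 (0.0544 to 0.101).

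Rgs3, which shortens signals of G proteins, fell from 2.30, 2.60, 1.59 and 2.42 to 0.72, 0.73 and 0.53, a change of -1.57 ± 0.22 (SE, adjusted p = 0.00764), and missed the threshold under 1 of 22 alternatives. Kcnk7, of a family of potassium channels, fell from 0.85, 1.32, 1.20 and 0.85 to -0.10, -0.55 and -0.50, a change of -1.44 ± 0.25 (SE, adjusted p = 0.0176) that was -1.38 with scaled arrays. Kcnk7 thus moved from above the median of its array to below it, and from the 85.6th percentile or above to between the 8.8th and 31.8th. It lost the call without high-fat array 2 or 3 (0.0684 and 0.0561). Has3, a hyaluronan synthase, fell from 2.04, 1.39, 2.34 and 1.72 to 0.60, 0.64 and 0.25 (-1.38 ± 0.22, SE, adjusted p = 0.0157). Tnfrsf23, a decoy receptor for the death ligand TRAIL, fell from 1.15, 1.24, 0.77 and 0.80 to 0.15, 0.11 and 0 (-0.90 ± 0.14, SE, adjusted p = 0.0126). Has3 and Tnfrsf23 both lost the call without high-fat array 3 (0.0508).

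Entpd1, which splits ATP outside the cell, had 1.82 and 1.19 in 2 control livers and -0.16 and -0.83 in 2 high-fat livers, a change of -2 ± 0.30 (SE, adjusted p = 0.0282), the largest of the named falls. Ndrg2 fell from 0.90, 2.25, 1.59 and 1.15 to -0.02 in both high-fat livers with a value, and the zinc finger gene Zfp474 from 1.49, 2.50, 1.12 and 2.01 to 0.29 in both. These 3 genes rest on 2 high-fat arrays each. Entpd1 and Zfp474 have no value on high-fat array 2. Without it they lost the call (0.0524 and 0.0633) while their changes stayed at -2 and -1.49. Neither could be tested without high-fat array 1 or 3, nor Entpd1 without control array 2 or 3. Ndrg2 lost the call without control array 3 or fasted array 2 (0.0628 and 0.054), and could not be tested without high-fat array 2 or 3. The phosphatase Dusp12 fell by 1.71 on the log2 scale (adjusted p = 0.0409), and the lysosomal membrane protein Lamp5 by 0.64 (adjusted p = 0.0282), but neither passed with scaled arrays or when control array 1 or high-fat array 1, 2 or 3 was left out (0.0503 to 0.145). Dusp12 lost the call also without control array 3 or fasted array 2 or 3. Il17a, a cytokine of T cells, had 1.70, 1.66, 1.89 and 1.66 in control livers and 1.29, 0.92 and 0.98 in high-fat livers (-0.66 ± 0.13, SE, adjusted p = 0.0266). It had -0.16 with scaled arrays (adjusted p = 0.774), and lost the call without control array 3 or high-fat array 2 or 3 (0.0574 to 0.104). Il17a and Tnfrsf23 were the 2 falls among 28 cytokine, chemokine and NF-kappa B genes, 7.14% against 3.61% called over all genes, and 14 were higher and 14 lower. With scaled arrays 1 of them fell, Tnfrsf23.

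The phosphatase subunit gene Ppp2r2d rose from -0.88, -0.32, -0.68 and -0.85 to 0.21, -0.01 and 0.43 (0.89 ± 0.16, SE, adjusted p = 0.0182), and lost the call without high-fat array 3 (0.0598). With Ptpru and Dusp12 it made 2 rises and 1 fall among 32 protein phosphatases, 9.38% called against 3.61% over all genes. Of 89 solute carriers 1 rose, Slc66a1, which exports basic amino acids from lysosomes, by 0.62 (adjusted p = 0.0323). That is 1.12%, below the 3.61% called over all genes. Slc66a1 had 0.03 on control array 1 and 0.30 to 0.33 on the other control arrays, and lost the call without any 1 array other than control arrays 2 and 4 and fasted array 3 (0.0529 to 0.137). Ion channels had 1 rise (Gabrr1) and 1 fall (Kcnk7) among 52, 3.85% called, and G-protein signalling genes 1 fall among 36, 2.78%. Both shares are near the 3.61% over all genes. Small GTPases and their regulators had 0 calls among 41 with centred arrays and 7 at an unadjusted p under 0.05. With scaled arrays 10 were at an unadjusted p under 0.05 and Rab3c, of vesicle release, rose (0.95, adjusted p = 0.0423). With scaled arrays Slc16a3, a lactate carrier, also rose among the solute carriers (0.62, adjusted p = 0.0238).

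Markers of other liver cells were sparsely measured. Of 22 macrophage and Kupffer cell markers 3 were tested: Cd163, a scavenger receptor of Kupffer cells, had 0.44, C1qc 0.51 and Aif1 0.28, all higher but with adjusted p of 0.100 to 0.265, and 2 with an unadjusted p under 0.05. The mean of the 2 filled on all 7 arrays was -0.57 to -0.33 on control arrays and -0.20 to 0.14 on high-fat arrays. Of 34 other leukocyte markers 11 were tested, 8 were higher and Pik3cg rose, 9.09% called against 3.61% over all genes. Over all genes tested 2304 of 3907 were higher and 2.20% rose. Ptprc, which all leukocytes carry, had -0.06 (adjusted p = 0.921), Cd3e -0.17 and Itgb2 0.14. Cd52 had 0.47 (adjusted p = 0.0539), Ighm 0.61 (adjusted p = 0.0615) and S100a9 0.47 (adjusted p = 0.118). The rest of the 11 were Klrd1 at 0.22, H2-Aa at 0.105, Cd3d at 0.07 and Ltb at -0.003. Stellate cell and matrix genes had a median of 0.05 over 10 members with 0 calls and 2 at an unadjusted p under 0.05, among them the collagen Col1a2 at 0.56 and the receptor Pdgfrb at 0.52, both with an adjusted p of 0.0899. Of the red cell genes 0 could be tested, and of the adipose markers 1, Retn, at -0.03.

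Interferon genes had 8 of 10 members higher, with a median of 0.17 (0.28 with scaled arrays and 0.30 without control array 2), 0 calls and 5 at an unadjusted p under 0.05. Over all genes tested 2304 of 3907 were higher, and 935 had an unadjusted p under 0.05. Irf7 had 0.56, Oasl2 0.45 and Mx1 0.38, with adjusted p of 0.0722 to 0.0823. The acute phase gene Saa2 had -0.99, -0.74, -1.24 and -0.95 in control livers and -0.36, -0.66 and -0.61 in high-fat livers (0.44 ± 0.14, SE, adjusted p = 0.0921). Chaperones and stress genes of the endoplasmic reticulum had 0 calls among 8, with 3 at an unadjusted p under 0.05. Nuclear receptors and liver transcription factors had 0 among 8 and 2, and Nr1i2, the pregnane X receptor that switches on Cyp3a11, had 0.43 (adjusted p = 0.208).

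Some genes held values in only one of the groups. Among 6985 genes with any value on the 7 arrays, 25 (0.358%) were filled on all 4 control arrays and on no high-fat array, and 42 (0.601%) on all 3 high-fat arrays and on no control array. The rule that left cells empty is not known from the sources at hand, so an empty cell gives no bound on a level, and these genes have no fold and no test. Of those filled in control livers, the highest mean ratios were those of Slc28a3, a nucleoside carrier, at 2.11, Nat8f4, an acetyltransferase, at 1.99, the antiproliferative gene Tob1 at 1.92, Tmbim6, which limits cell death at the endoplasmic reticulum, at 1.59, and the sulfotransferase gene Sult2a8 at 1.51. All 25 also held a value on at least 1 fasted array. Of those filled in high-fat livers they were Krr1, of ribosome assembly, at 1.79, the uncharacterised 0610039K10Rik at 1.05, the potassium channel gene Kcnd2 at 0.74, Fibin at 0.36 and the dioxygenase gene Ogfod2 at 0.32. Of these 42 genes 19 held no value on any fasted array.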

How the data were processed

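The deposited values are log2 ratios of liver (Cy5) over universal mouse reference RNA (Cy3), which the authors made from 2-colour arrays, dyes per the labels' protocols. The log base is taken as 2; base, scanner, background correction, normalisation and the rule for empty cells: not given in the sources used here. No intensities were used, so precision is limited by how many arrays there are. Another base would scale all log2 changes by one factor and alter the folds.

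Of 17280 rows 14718 carry 1 gene symbol in the platform's table, 1 several and 2561 none; 14445 gene identifiers matched the current gene table. Each array was centred on its median and rows of one symbol were averaged. Genes with values on at least 2 control and 2 high-fat arrays (3907; 3473 with a symbol) entered 1 model over 10 arrays with a mean per group (limma 3.58.1, R 4.3.3); 136 of them have no fasted value. Residual degrees of freedom were at most 7, prior degrees of freedom 4.87. Scaling divided each centred array by its median absolute value. Other spots of a called gene disagreed for Mta3, Nt5c3 and Csnk1a1, which are not named as results. The model was tested on simulated data.

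Genes are named by a rule: the 12 largest rises and 12 largest falls called with both scalings and without overlap, genes called under every alternative, from each list up to 4 called members by smallest p, 49 fixed markers where tested, and the 5 highest of the genes filled in 1 group only. Members of lists with their values, row neighbours and repeated spots were chosen after their values were seen. Members and lists were chosen with earlier results of these data known. Alternatives were quantile normalisation, other centring, filters, array weights, a replicate block and leaving out single arrays.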

Additional observations from a re-analysis of the deposited data

Results flagged for a closer look

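Slc66a1 had a ratio of 0.03 on control array 1, while the nearest control array had 0.30, a gap of 0.9 of the range of the 4 control arrays, which is past the 95% critical value of Dixon's test for 4 samples. Chance flags about 1 in 20 such groups. Of 38 named genes with 4 control values 1 was flagged, which is no more than chance gives.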

How the results depend on the processing

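The count of 141 genes (86 rises, 55 falls) was 82 with values as deposited (30 rises), 25 with the 7 arrays alone (9 and 16), 19 with these scaled (18 and 1) and 97 with all 11 arrays (55 rises); rises were 131 and falls 23 with quantile normalisation, rises 41 centred on rows filled on all 10 arrays and 49 without the lowest 25% of mean ratios, and falls 24 with scaled arrays. The split of rises to falls was 30 to 52 with values as deposited and 41 to 66 with the other centring. Same-numbered control and high-fat arrays had deviations correlated by 0.15, -0.11 and 0.09 for numbers 1, 2 and 3. With the fasted array of its number, number 1 had 0.18 (control) and 0.12 (high-fat), and numbers 2 and 3 had -0.18 to 0.09. Whether arrays of one number share a batch was not tested, and these few values cannot decide it. With the replicate block 63 genes were called (32 rises, 31 falls), and 23 of the 43 called genes named in the text lost the call. Leaving out single arrays gave 17 to 192 calls, 9 to 107 rises and 7 to 85 falls, and 26 to 128 calls with scaled arrays (114 with all); genes filled in control livers only were 29 to 95 (16 with all 11 arrays) and in high-fat livers only 47 to 96 (13). The change reversed for Alb with scaled arrays (0.28; 0.27 with 7 arrays), Ttr (0.32, 0.31, and 0.0596 with quantile normalisation), Apoe (0.36, 0.34, 0.16), Scd1 with 11 arrays (-0.29, and -0.03 to 0.38 without single arrays), Pklr with the other centring (-0.0492; -0.10 to 0.17 without single arrays) and Dgat2 with quantile normalisation (0.0901; -0.78 to 0.06 without single arrays), none of them called; the cause was not tested. Of the other values of named genes 903 kept their direction and side of the threshold, 262 no longer passed and 6 newly passed. Depth in the sense of signal over background is unknown here.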
